A study of Homo sapiens with 12 samples.

Results

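Thrombomodulin and 8 further genes of coagulation and fibrinolysis were examined in U937, an established cell line from a human histiocytic lymphoma that resembles immature monocytes. The 9 genes are THBD, F3, PROCR, PLAU, PLAUR, SERPINB2, SERPINE2, ANXA2 and S100A10. Each was read through the probe sets annotated to its symbol alone, and its brightest probe set, by the mean of the 12 arrays, gave its main value. Of the 9 genes, 8 were measured, among 19775 genes in the table, and all 8 passed the signal filter that 14080 genes passed. No probe set carried SERPINB2 alone in the annotation, so its transcript was not analysed here. The table holds 12 Affymetrix arrays in 4 groups of 3 replicates, which the series describes as biological. The groups were U937 transduced with an EVI1 expression vector and given 1 µM all-trans retinoic acid (ATRA) for 24 h, the same EVI1 cells given the solvent DMSO, empty-vector cells given ATRA, and empty-vector cells given DMSO. All 4 groups thus carried a vector. The labels do not say whether each line was a clone or a pool, nor which promoter drove EVI1. EVI1, encoded by MECOM, is a zinc finger transcription factor and an oncogene of myeloid leukaemia. ATRA, a ligand of the retinoic acid receptors, induces differentiation in several leukaemias.

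Monocytic cells can both start and restrain clotting. Tissue factor (F3) on the cell surface binds factor VII and starts the coagulation cascade, whereas thrombomodulin (THBD) binds thrombin and turns it towards activation of protein C, which the endothelial protein C receptor (PROCR) presents. Urokinase (PLAU), held at the cell surface by its receptor PLAUR, cleaves plasminogen to the fibrin-degrading protease plasmin. The serpins SERPINB2 (plasminogen activator inhibitor 2) and SERPINE2 (protease nexin 1) inhibit urokinase, SERPINE2 also inhibits thrombin, and the complex of annexin A2 (ANXA2) with S100A10 is a cell-surface receptor for plasminogen. In acute promyelocytic leukaemia, ATRA is known for its effect on the bleeding disorder of the disease.

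RefSeq start-site windows (GRCh38.p14, 250 bases before to 50 after the start) matched 8 of the 9 genes, in 10 windows because PLAU and SERPINE2 had 2 each. The gene without a window was THBD, so no motif was searched for at its start site. Those of F3 and PLAUR are shown because both transcripts were higher in EVI1 cells than in vector cells under ATRA and both windows hold the letters TGANTCA, the AP-1 motif, in capitals. The F3 window lies at chr1:94541710-94542009 and the PLAUR window at chr19:43670120-43670419, both on the minus strand and written 5′ to 3′.
F3: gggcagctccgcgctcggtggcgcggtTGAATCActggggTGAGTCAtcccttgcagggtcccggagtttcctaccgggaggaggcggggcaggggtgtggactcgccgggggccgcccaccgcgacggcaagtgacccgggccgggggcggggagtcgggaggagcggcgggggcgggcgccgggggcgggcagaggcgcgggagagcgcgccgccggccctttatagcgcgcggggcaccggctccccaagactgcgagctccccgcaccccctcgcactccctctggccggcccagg
PLAUR: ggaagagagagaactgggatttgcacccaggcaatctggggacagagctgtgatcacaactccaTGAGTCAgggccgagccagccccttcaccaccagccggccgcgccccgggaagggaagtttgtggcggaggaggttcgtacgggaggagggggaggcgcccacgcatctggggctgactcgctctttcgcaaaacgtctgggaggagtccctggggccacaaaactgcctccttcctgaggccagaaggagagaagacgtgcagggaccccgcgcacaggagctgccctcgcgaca
The F3 window holds 2 matches to TGANTCA, which start 223 and 210 bases before the start site, and the PLAUR window holds 1, which starts 186 bases before it. TGANTCA also occurred once each in the windows of ANXA2 and SERPINB2, so that 4 of the 10 windows held it, against 7.71% of all 35116 windows of this length. On either strand, GGGCGG (the GC box) occurred 4 times in the F3 window and not in the PLAUR window, against 45.0% of all windows with a match. AGGTCA, a half-site of retinoid receptors, occurred in neither (13.8% of all windows), and TATAAA occurred once in that of F3 (11.5%). None of these matches overlapped another. A match describes these letters only, and no binding was measured.

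The deposited log2 levels had medians of 5.29 to 5.35 and lower quartiles of 3.83 to 3.91 on the 12 arrays. Arrays of the same group correlated with r of 0.987 to 0.996 over all probe sets with 1 symbol. Principal component 1 held 52.0% of the variance over tested genes, and its scores rose from replicate number 1 to number 3 in all 4 groups. In that order they were 15.3, 37.2 and 53.6 in EVI1 ATRA and -31.7, -16.4 and 1.8 in EVI1 DMSO cells. They were -3.9, 10.8 and 12.2 in vector ATRA and -35.3, -27.7 and -15.9 in vector DMSO cells. At each number the ATRA array thus scored above the DMSO array of its cell type. MECOM, the transduced gene, read 2.61 to 3.60 over its 5 probe sets, below the lower quartile of every array, so the arrays do not check the EVI1 label and groups are named by their labels. Of 9 measured monocytic and myeloid markers, 8 passed the filter, with LYZ at 12.35 to 13.65 and CSF1R at 5.59 to 6.79, while FCGR1A (3.21 to 3.80) did not. Of these 8, CSF1R rose with ATRA in EVI1 cells (0.62, limma adjusted p = 0.0324), where 15.1% of all tested genes were called. With the block 2 were higher and 2 lower there, where 35.7% of all tested genes were called. LYZ and ITGB2, chosen after their values were seen, passed with the block in both cell types (LYZ -0.45 in EVI1 and -0.46 in vector cells, ITGB2 0.69 and 0.64).

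THBD, F3, PLAUR and SERPINE2 were the members called without the replicate block. With ATRA, THBD rose and F3 fell in both cell types. In EVI1 cells, THBD and SERPINE2 were lower than in vector cells under either agent, and PLAUR and F3 were higher under ATRA. Genes were called, and are said to rise or fall, at an adjusted p under 0.05 in limma's moderated test with adjustment by Benjamini and Hochberg over all 14080 tested genes. For ATRA against DMSO in EVI1 cells 2 of 8 members were called (THBD and F3), where 15.1% of all tested genes were called (7.45% higher and 7.66% lower). For ATRA against DMSO in vector cells the same 2 were called, where 3.52% of all genes were (2.00% higher and 1.52% lower). For EVI1 against vector under DMSO 2 were called (THBD and SERPINE2), where 1.21% of all genes were, and under ATRA 4 were called (THBD, SERPINE2, PLAUR and F3), where 5.61% of all genes were. With the replicate number as a block, which the arrays bear out as a pairing, 5, 4, 5 and 5 members were called in these 4 comparisons in the same order, where 35.7%, 20.0%, 7.19% and 25.3% of all genes were. The block added S100A10 in all 4 comparisons and ANXA2 for ATRA in both cell types. It also added PLAU for ATRA in EVI1 cells, and F3 and PLAUR for EVI1 against vector under DMSO. The median log2 difference of the 8 members was 0.16, -0.03, 0.04 and 0.03 in that order, beside -0.02, -0.003, 0.02 and -0.01 over all tested genes. Without the 4 arrays of number 2, 0 members were called by limma in any comparison, although THBD still differed by 1.70, 2.79, -3.55 and -4.64 in that order (adjusted p = 0.254, 0.373, 0.217 and 0.0844). Without the 4 arrays of number 3, the calls of F3, PLAUR and SERPINE2 between EVI1 and vector cells were lost (0.51, 0.83 and -0.95 under ATRA, adjusted p = 0.203, 0.0862 and 0.144, and -0.95 for SERPINE2 under DMSO, 0.237).

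**Figure D1:**
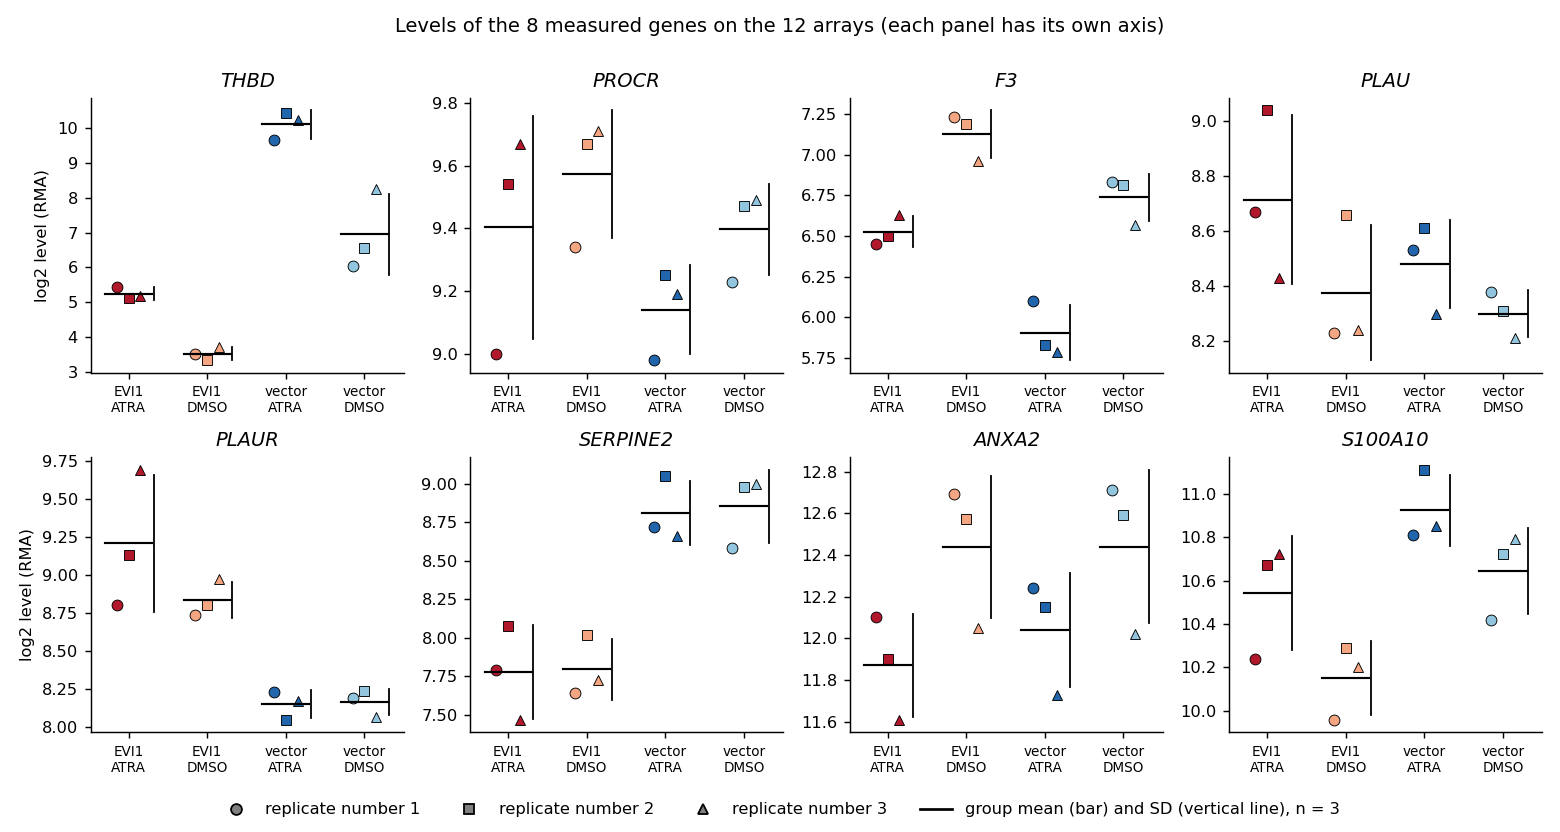
Log2 level (RMA, vertical axis) of the main probe set of each of the 8 measured genes in EVI1 ATRA, EVI1 DMSO, vector ATRA and vector DMSO cells; symbols mark the replicate number, bars the group mean and vertical lines the SD of 3 arrays. THBD is high on the 3 vector ATRA arrays (9.66 to 10.45) and low on all 6 EVI1 arrays (3.34 to 5.45), and levels cannot be compared between panels.

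THBD, the thrombin receptor that turns thrombin into an anticoagulant, was the member with the largest differences. It read 5.45, 5.13 and 5.17 on the EVI1 ATRA arrays and 3.51, 3.34 and 3.71 on the EVI1 DMSO arrays. It read 9.66, 10.45 and 10.24 on the vector ATRA arrays and 6.05, 6.55 and 8.27 on the vector DMSO arrays. The order of the levels was vector ATRA, vector DMSO, EVI1 ATRA and EVI1 DMSO, and on this probe set, 203887_s_at, no 2 of the groups overlapped. On 237252_at the EVI1 ATRA arrays (5.09 to 5.32) and the vector DMSO arrays (5.23 to 7.11) overlapped, although their means stood in the same order (5.23 and 5.96). Those 2 groups were thus apart on 2 of the 3 probe sets.

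In vector cells THBD was higher with ATRA by 3.16 ± 0.43 on the log2 scale (SE, n = 3 per group; 8.94-fold; limma adjusted p = 0.00388), with group means of 10.12 ± 0.41 with ATRA and 6.96 ± 1.16 with DMSO (SD). The increases at the 3 replicate numbers were 3.61, 3.90 and 1.97. The smallest of these belongs to number 3, whose vector DMSO array was the highest of its group. Without that array the difference was 3.82 ± 0.23 (adjusted p = 4.01e-05), which is a larger fold by more than 1.5 times.

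In EVI1 cells THBD was higher with ATRA by 1.73 ± 0.43 (3.32-fold; limma adjusted p = 0.0197), with means of 5.25 ± 0.17 with ATRA and 3.52 ± 0.19 with DMSO (SD, n = 3 each). All 3 EVI1 DMSO arrays lay below the lower quartile of every array, near the array's background. The call rested on 1 of 3 THBD probe sets. The probe sets 237252_at and 203888_at differed by 0.44 ± 0.36 and 0.47 ± 0.31 (adjusted p = 0.522 and 0.384, in that order, in a limma fit over 26235 probe sets), and the mean of the 3 probe sets differed by 0.88 (adjusted p = 0.124). On 237252_at and 203888_at the EVI1 ATRA arrays (5.09 to 5.32 and 4.77 to 5.09) lay above the EVI1 DMSO arrays (4.76 to 4.83 and 4.43 to 4.51). The SE is shared by all 4 groups, and the SD was widest in vector DMSO cells (1.01 and 0.82). Leaving out EVI1 DMSO replicate 1 or 2, or EVI1 ATRA replicate 2 or 3, also ended the call, with a difference of 1.64 to 1.79 and a limma adjusted p of 0.0526 to 0.0680. With vector DMSO replicate 3 left out, an array outside this comparison, the difference stayed at 1.73 ± 0.21 (limma adjusted p = 0.00168).

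**Figure D2:**
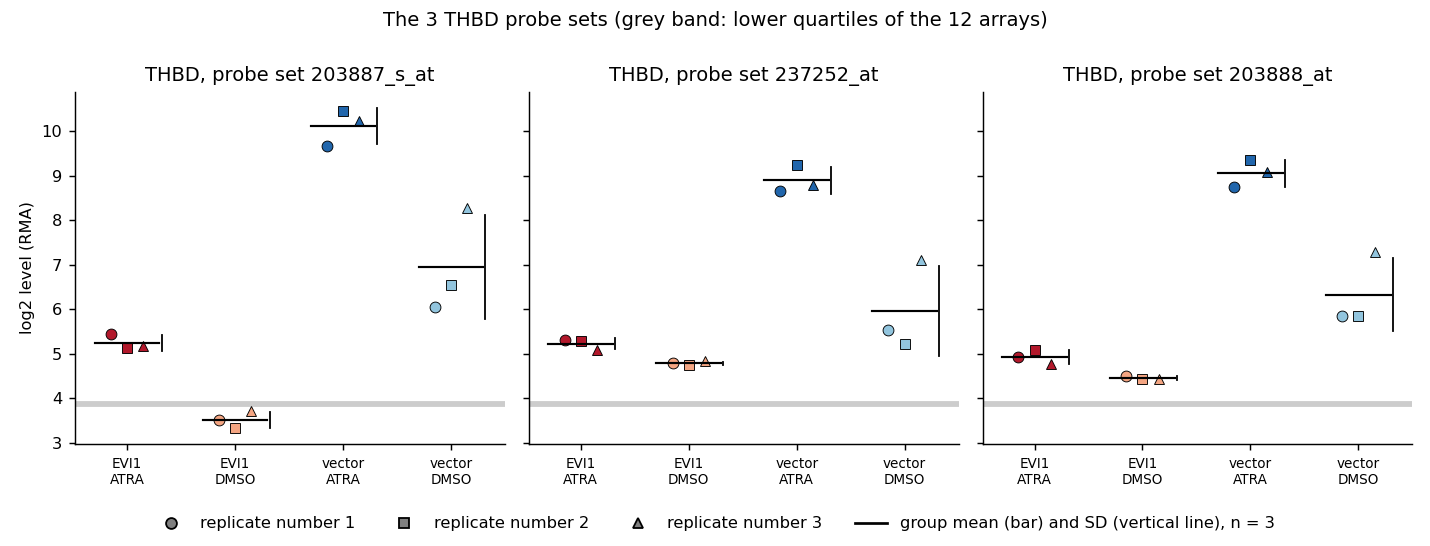
Log2 level (RMA, vertical axis) of the 3 THBD probe sets in EVI1 ATRA, EVI1 DMSO, vector ATRA and vector DMSO cells, with symbols for the replicate number, bars for the mean and vertical lines for the SD of 3 arrays; the grey band spans the lower quartiles of the 12 arrays (3.83 to 3.91). All 3 probe sets place the vector ATRA arrays highest and the EVI1 DMSO arrays lowest, and they differ in how far EVI1 ATRA stands above EVI1 DMSO.

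Between the cell types THBD was 29.2-fold lower in EVI1 than in vector cells under ATRA (-4.87 ± 0.43, limma adjusted p = 0.000119) and 10.8-fold lower under DMSO (-3.44 ± 0.43, adjusted p = 0.00227; n = 3 per group). Under ATRA all 3 probe sets were called, with differences of -4.87, -4.13 and -3.67. Under DMSO 203888_at was called (-1.87 ± 0.31, adjusted p = 0.0139) and 237252_at was not (-1.16 ± 0.36, adjusted p = 0.240). Whether background in the EVI1 arrays limits the size under DMSO was not tested. On the main probe set that size was -2.78 without vector DMSO replicate 3, where the fold is smaller by more than 1.5 times. In bulk RNA, fewer cells with the transcript and less of it per cell cannot be told apart.

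The ATRA difference of THBD in EVI1 cells minus that in vector cells was -1.43 ± 0.61 on the log2 scale, with a 95% interval of -2.76 to -0.11. The EVI1 DMSO arrays read below the lower quartile on the main probe set and above it on 203888_at and 237252_at. Whether background limits the EVI1 difference, and with it the value of -1.43, was not tested. The value ranged from -2.09 (without vector DMSO replicate 3, ± 0.31, limma adjusted p = 0.511) to -0.98 when arrays were left out. The value did not pass the test over all genes (limma interaction, adjusted p = 0.998; unadjusted p = 0.0366). The probe sets 203888_at and 237252_at gave larger values, -2.26 ± 0.44 and -2.50 ± 0.52. Their limma adjusted p was 0.999 for both, and their unadjusted p was 0.000229 and 0.000389. Limma called 0 of 14080 genes for this interaction, with 362 at an unadjusted p under 0.05, and 0 with the replicate block. For the other 7 members the interaction lay between -0.17 (ANXA2) and 0.39 (PLAUR), each with an adjusted p of 0.998.

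THBD lies on chromosome 20. Its nearest tested genes, 10 on each side in the order of the RefSeq table, were examined after the values had been seen. Under ATRA 4 of the 20 were lower in EVI1 than in vector cells and 1 was higher by limma, where 2.33% and 3.28% of all tested genes were, and under DMSO 3 were lower and 1 higher, where 0.682% and 0.533% were. With the block 6 were lower and 1 higher under each agent, where 25.3% of all tested genes were called in either direction under ATRA and 7.19% under DMSO. NAA20, a subunit of an amino-terminal acetyltransferase, had log2 differences of -0.82 under ATRA and -0.68 under DMSO (adjusted p = 0.000621 and 0.00303). RALGAPA2, a regulator of Ral GTPases, was higher by 1.22 and 1.06 (adjusted p = 0.000487 and 0.00165). The 20 neighbours ranged from -0.93 to 1.22 under ATRA and from -0.68 to 1.06 under DMSO, a smaller span than the difference of THBD itself. Around each of the other 7 members, 0 to 2 of 20 neighbours were called by limma under ATRA and 0 under DMSO (with the block, 2 to 8 and 0 to 4).

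The tested genes outside the list whose levels tracked THBD most closely over the 12 arrays were SMIM19 (Pearson r = 0.975), PHF20L1 (0.970) and MGME1 (0.970). SMIM19 and PHF20L1 lie on chromosome 8, and MGME1, a mitochondrial exonuclease gene, lies on chromosome 20 as THBD does. MGME1 averaged 8.63 in EVI1 ATRA, 8.25 in EVI1 DMSO, 9.36 in vector ATRA and 8.84 in vector DMSO cells. These means stand in the same order of groups as those of THBD, over a narrower span. These values describe likeness over arrays that share groups and replicate numbers.

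PROCR, the receptor that presents protein C to thrombin bound by thrombomodulin, was not called in any comparison. It read 9.0, 9.54 and 9.67 in EVI1 ATRA cells and 9.34, 9.67 and 9.71 in EVI1 DMSO cells. It read 8.98, 9.25 and 9.19 in vector ATRA cells and 9.23, 9.47 and 9.49 in vector DMSO cells. The groups overlapped in each comparison, and number 1 was the lowest array of every group. ATRA against DMSO gave -0.17 (95% interval -0.54 to 0.20) in EVI1 cells and -0.26 (-0.63 to 0.12) in vector cells. The limma adjusted p was 0.598 in EVI1 cells and 0.501 in vector cells (0.173 and 0.0681 with the block), and the ATRA array was the lower one at all 3 numbers of both cell types. EVI1 against vector gave 0.26 (-0.11 to 0.64) under ATRA and 0.18 (-0.20 to 0.55) under DMSO.

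F3, which encodes tissue factor, fell with ATRA in both cell types. It read 6.45, 6.50 and 6.63 in EVI1 ATRA cells and 7.23, 7.19 and 6.96 in EVI1 DMSO cells. It read 6.10, 5.83 and 5.79 in vector ATRA cells and 6.83, 6.81 and 6.57 in vector DMSO cells. The ATRA and DMSO arrays of a cell type did not overlap. The difference was -0.60 ± 0.12 in EVI1 cells (limma adjusted p = 0.00836) and -0.83 ± 0.12 in vector cells (adjusted p = 0.00616; SE, n = 3 per group), so that the ATRA level was 0.66 times the DMSO level in EVI1 cells and 0.56 times in vector cells. F3 and THBD, the receptor that starts the cascade and the receptor that restrains it, thus moved in opposite directions with ATRA.

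F3 was higher in EVI1 than in vector cells under ATRA by 0.62 ± 0.12 (1.54-fold; limma adjusted p = 0.0145). Under DMSO it differed by 0.39 ± 0.12, which was not called without the replicate block (adjusted p = 0.197, blocked 0.0444), although the EVI1 arrays lay above the vector arrays. The call under ATRA was lost without vector ATRA replicate 2 or 3 or EVI1 ATRA replicate 3 (0.56 to 0.58, adjusted p = 0.0583 to 0.0677). The order of the group means was EVI1 DMSO (7.13 ± 0.15), vector DMSO (6.74 ± 0.14), EVI1 ATRA (6.53 ± 0.09) and vector ATRA (5.91 ± 0.17; SD, n = 3). The arrays of vector DMSO and EVI1 ATRA, neighbours in that order, overlapped.

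The tested genes that tracked F3 most closely were TNFRSF10B (Pearson r = 0.967 over 12 arrays), PHACTR3 (0.957) and MXI1 (0.956). TNFRSF10B, a death receptor for TRAIL, averaged 8.36 in EVI1 ATRA, 9.02 in EVI1 DMSO, 7.76 in vector ATRA and 8.45 in vector DMSO cells. That is the same order of groups as for F3. The matches to F3 and to THBD share no gene.

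PLAUR, the urokinase receptor, separated EVI1 from vector cells. It read 8.80, 9.13 and 9.69 in EVI1 ATRA cells and 8.74, 8.80 and 8.97 in EVI1 DMSO cells. It read 8.23, 8.05 and 8.17 in vector ATRA cells and 8.19, 8.24 and 8.07 in vector DMSO cells. All 6 EVI1 arrays stood above all 6 vector arrays. Under ATRA the difference was 1.06 ± 0.18 (2.08-fold; limma adjusted p = 0.00774). Under DMSO it was 0.67 ± 0.18, not called without the replicate block (adjusted p = 0.115, blocked 0.0331) but called without EVI1 ATRA replicate 1 or 3, whose removal leaves the value at 0.67 and gives an adjusted p of 0.0445 or 0.0186. The second PLAUR probe set, 211924_s_at, gave 1.09 ± 0.19 under ATRA (adjusted p = 0.0109) and the third, 214866_at, 0.70 ± 0.18 (adjusted p = 0.0589, blocked 0.00705). Under DMSO they gave 0.71 (adjusted p = 0.144, blocked 0.0499) and 0.45 (adjusted p = 0.471, blocked 0.0982), so the third was not called with the block either.

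The response of PLAUR to ATRA was not called in either cell type. In EVI1 cells the difference was 0.37 (95% interval -0.02 to 0.76; limma adjusted p = 0.199), and the 3 numbers gave 0.06, 0.33 and 0.72. Number 1 was the number with the smallest difference. With arrays left out the difference ranged from 0.13 to 0.57 (limma adjusted p up to 0.668). It was called only without EVI1 ATRA replicate 1 (0.57, adjusted p = 0.0223), and not with the block (adjusted p = 0.103). The probe sets 211924_s_at and 214866_at gave 0.33 and 0.16 (adjusted p = 0.313 and 0.668), each with the ATRA array lower at number 1 (-0.09 and -0.13). In vector cells the difference was -0.02 (-0.41 to 0.37; adjusted p = 0.979).

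PLAU, the urokinase that PLAUR binds, was called in no comparison without the replicate block. It read 8.67, 9.04 and 8.43 in EVI1 ATRA cells and 8.23, 8.66 and 8.24 in EVI1 DMSO cells. It read 8.53, 8.61 and 8.30 in vector ATRA cells and 8.38, 8.31 and 8.21 in vector DMSO cells. The groups overlapped in all 4 comparisons. With ATRA the difference was 0.34 in EVI1 cells (95% interval -0.02 to 0.70; limma adjusted p = 0.204, blocked 0.0292) and 0.18 in vector cells (-0.18 to 0.54; adjusted p = 0.660). EVI1 against vector gave 0.23 (-0.13 to 0.59) under ATRA and 0.08 (-0.28 to 0.44) under DMSO. The second PLAU probe set, 211668_s_at, gave 0.40 with ATRA in EVI1 cells (adjusted p = 0.116, blocked 0.0279) and -0.06 in vector cells (adjusted p = 0.918). Between EVI1 and vector cells under ATRA it gave 0.46, with no overlap of the groups, and passed with the block only (adjusted p = 0.128, blocked 0.0243).

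SERPINE2, an inhibitor of thrombin and urokinase, was lower in EVI1 cells and did not pass the test with ATRA. It read 7.79, 8.08 and 7.47 in EVI1 ATRA cells and 7.64, 8.02 and 7.73 in EVI1 DMSO cells. It read 8.72, 9.05 and 8.66 in vector ATRA cells and 8.58, 8.98 and 9.0 in vector DMSO cells. All 6 EVI1 arrays stood below all 6 vector arrays. The difference between EVI1 and vector cells was -1.03 ± 0.18 under ATRA (2.04-fold lower; limma adjusted p = 0.00868) and -1.06 ± 0.18 under DMSO (2.08-fold lower; adjusted p = 0.0134). With ATRA it differed by -0.02 (95% interval -0.41 to 0.37) in EVI1 cells and -0.04 (-0.43 to 0.35) in vector cells. The second SERPINE2 probe set, 227487_s_at, read 2.96 to 3.37 throughout and was not tested.

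The SERPINE2 call under DMSO did not hold without some single arrays. It was lost without EVI1 DMSO replicate 1 or 3 or vector DMSO replicate 2 or 3, with differences of -1.02 to -0.98 and limma adjusted p of 0.0521 to 0.0799. PLAUR and SERPINE2 thus differed between the cell types in opposite directions, the receptor of urokinase being higher and a urokinase inhibitor lower in EVI1 cells.

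**Figure D3:**
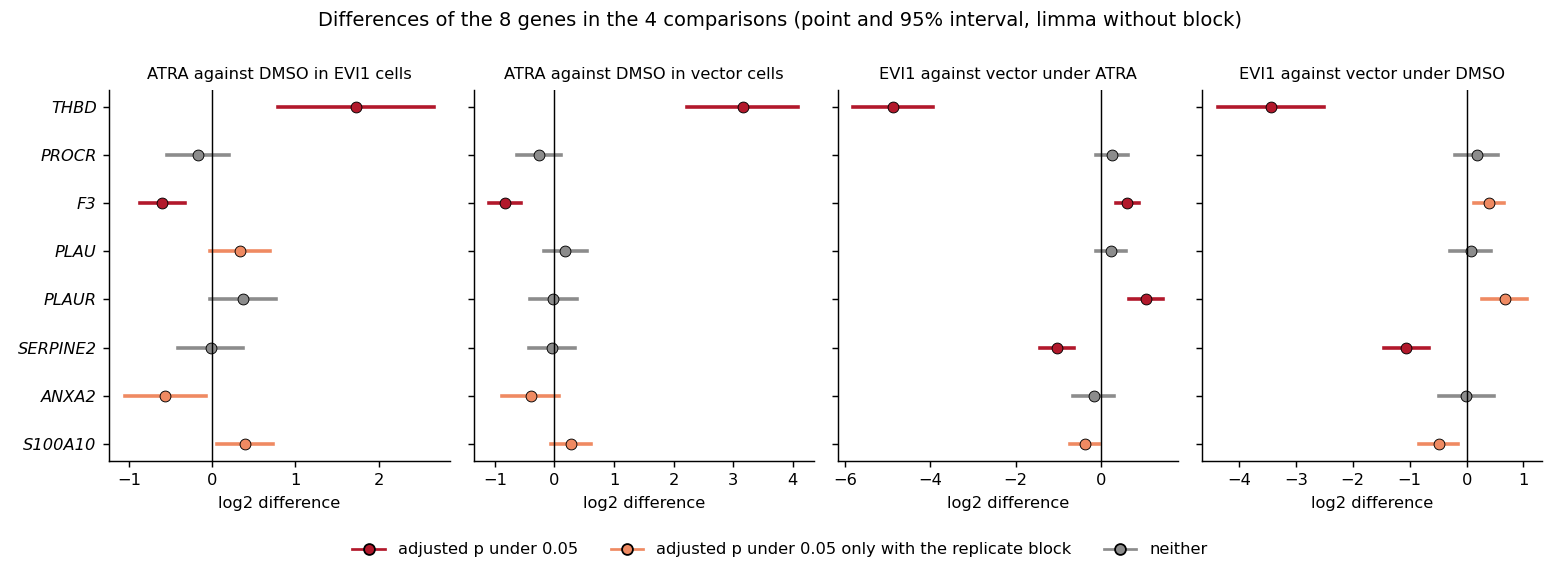
Log2 differences of the 8 genes (horizontal axis, 1 scale per panel) for ATRA against DMSO in EVI1 and in vector cells and for EVI1 against vector under ATRA and under DMSO; points are limma estimates without the replicate block and lines their 95% intervals, and colour marks an adjusted p under 0.05 without the block, only with it, or neither. THBD spans from -4.87 to 3.16, and F3 lies below 0 in both ATRA panels and above 0 in both EVI1 panels.

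ANXA2 and S100A10, the 2 chains of the annexin A2 plasminogen receptor, were called in no comparison without the block. ANXA2 read 12.10, 11.90 and 11.61 in EVI1 ATRA cells and 12.69, 12.57 and 12.05 in EVI1 DMSO cells. It read 12.24, 12.15 and 11.73 in vector ATRA cells and 12.71, 12.59 and 12.02 in vector DMSO cells. In each group number 3 was the lowest array and number 1 the highest, and ATRA stood below DMSO at every number. The difference with ATRA was -0.57 ± 0.22 in EVI1 cells (limma adjusted p = 0.111, blocked 0.000272) and -0.40 ± 0.22 in vector cells (adjusted p = 0.394, blocked 0.00453). EVI1 against vector gave -0.17 (95% interval -0.66 to 0.32) under ATRA and -0.0033 (-0.49 to 0.48) under DMSO, and neither passed with the block (adjusted p = 0.116 and 0.988). In EVI1 cells the ATRA difference also passed without EVI1 DMSO replicate 3 (-0.76, adjusted p = 0.0452). The 3 bright ANXA2 probe sets, of a type whose probes can bind other transcripts, gave -0.60 to -0.55 in EVI1 cells and -0.42 to -0.38 in vector cells. ANXA2 has processed pseudogenes, so its reading is uncertain to that extent.

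S100A10, the light chain, had differences of the other sign with ATRA. It read 10.24, 10.67 and 10.72 in EVI1 ATRA cells and 9.96, 10.29 and 10.20 in EVI1 DMSO cells. It read 10.81, 11.11 and 10.85 in vector ATRA cells and 10.42, 10.72 and 10.79 in vector DMSO cells. The ATRA array was higher at every number of both cell types, and the EVI1 array was lower than the vector array at every number under both agents. With ATRA the difference was 0.39 ± 0.16 in EVI1 cells (limma adjusted p = 0.116, blocked 0.00554) and 0.28 ± 0.16 in vector cells (adjusted p = 0.397, blocked 0.0469). EVI1 against vector gave -0.38 ± 0.16 under ATRA (adjusted p = 0.187, blocked 0.0112) and -0.49 ± 0.16 under DMSO (adjusted p = 0.206, blocked 0.00745). Without EVI1 ATRA replicate 1 the ATRA difference in EVI1 cells was 0.55 and passed without the block (adjusted p = 0.0228). The 2 chains of the receptor thus differed in opposite directions with ATRA in the blocked fit.

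Beyond these genes, 82 genes in 8 lists of clotting, fibrinolysis, annexins, serpins and transcription factors were examined, of which 78 were measured and 52 tested. By limma 4 rose and 2 fell with ATRA in EVI1 cells (11.5% called), and 0 rose and 2 fell in vector cells (3.85% called), shares near those of all genes above. Between EVI1 and vector cells 3 were higher and 2 lower under ATRA (9.62% called), where 5.61% of all tested genes were called. In the same comparison 0 were called under DMSO, where 1.21% of all tested genes were. Under DMSO 3 had an unadjusted limma p under 0.05, and with the block 5 were called, where 7.19% of all tested genes were. Median differences of the 52 genes lay between 0.02 and 0.08 in these 4 comparisons.

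Among the 11 tested coagulation factors, FGL2, a membrane prothrombinase, was the 1 that rose with ATRA in EVI1 cells and F13A1, the catalytic chain of factor XIII, the 1 that was lower in EVI1 cells under ATRA. FGL2 averaged 9.70 ± 0.62 in EVI1 ATRA and 8.69 ± 0.31 in EVI1 DMSO cells (1.01, limma adjusted p = 0.0390), and 9.34 ± 0.38 in vector ATRA and 8.58 ± 0.30 in vector DMSO cells (0.76, adjusted p = 0.198, blocked 0.0197; SD, n = 3). F13A1 averaged 4.56 ± 0.35 in EVI1 ATRA and 5.95 ± 0.29 in vector ATRA cells (-1.39, adjusted p = 0.0347), and 4.60 ± 0.65 in EVI1 DMSO and 5.83 ± 0.56 in vector DMSO cells (-1.23, adjusted p = 0.123, blocked 0.0380). Its EVI1 arrays lay mostly under the filter, which it passed through the vector arrays. Factor XII (F12), chosen after its values were seen, differed with ATRA by -0.52 in both cell types and passed only with the block (adjusted p = 0.000326 in EVI1 and 0.00108 in vector cells).

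Of 8 tested anticoagulant genes 0 were called by limma in any of the 4 comparisons (0 to 2 at an unadjusted p under 0.05 in a comparison, up to 2 with the block). PROS1, which encodes protein S, the cofactor of activated protein C, was singled out after its values were seen. It averaged 8.34 in EVI1 ATRA and 7.65 in EVI1 DMSO cells, and 8.27 in vector ATRA and 7.58 in vector DMSO cells. Both differences were 0.69, with adjusted p = 0.0766 in EVI1 cells (blocked 0.000857) and 0.158 in vector cells (blocked 0.00235). GAS6, a relative of protein S singled out in the same way, had differences of the other sign with ATRA, -0.28 in EVI1 cells (adjusted p = 0.111, blocked 0.0292) and -0.35 in vector cells (adjusted p = 0.115, blocked 0.0198). The tissue factor pathway inhibitor gene TFPI (2.99 to 3.87) was below the filter and was not tested.

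In the rest of the plasminogen system 0 of 6 tested genes were called by limma in the 4 comparisons (0 to 1 at an unadjusted p under 0.05 in a comparison, up to 1 with the block). PLAT, the tissue-type plasminogen activator, read 2.62 to 3.19 on the 12 arrays, below the lower quartile of each, so of the 2 plasminogen activators urokinase was the one with signal. The protease inhibitor SERPINA1, also singled out afterwards, passed only with the block (0.81 with ATRA in EVI1 cells, blocked adjusted p = 0.0053, and 0.61 in vector cells, blocked 0.0371). Of 4 genes for carboxylation and secretion of clotting factors, VKORC1, the vitamin K epoxide reductase, was lower in EVI1 cells under ATRA (10.28 ± 0.11 in EVI1 and 10.85 ± 0.05 in vector cells; -0.58, limma adjusted p = 0.00761). With the block it also passed under DMSO (-0.37, adjusted p = 0.103, blocked 0.00920) and with ATRA in EVI1 cells (-0.24, adjusted p = 0.128, blocked 0.0211). The 1 tested protease-activated receptor and the 3 tested clade B serpins outside the 9 genes were not called without the block.

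Of 7 other annexins tested, ANXA1, a phospholipid-binding mediator of the resolution of inflammation, rose with ATRA in EVI1 cells, to 11.08 ± 0.60 against 9.42 ± 0.47 with DMSO (1.66, limma adjusted p = 0.0109), whereas in vector cells it passed only with the block (10.57 with ATRA and 9.30 with DMSO; 1.27, adjusted p = 0.0820, blocked 0.00189). ANXA4 was higher in EVI1 than in vector cells under ATRA (10.76 and 10.17; 0.59, adjusted p = 0.0499), and with the block also under DMSO (0.45, adjusted p = 0.269, blocked 0.0241) and with ATRA in EVI1 cells (0.34, adjusted p = 0.177, blocked 0.0243). ANXA1 and ANXA2, of 1 gene family, thus had differences of opposite sign with ATRA.

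**Figure D4:**
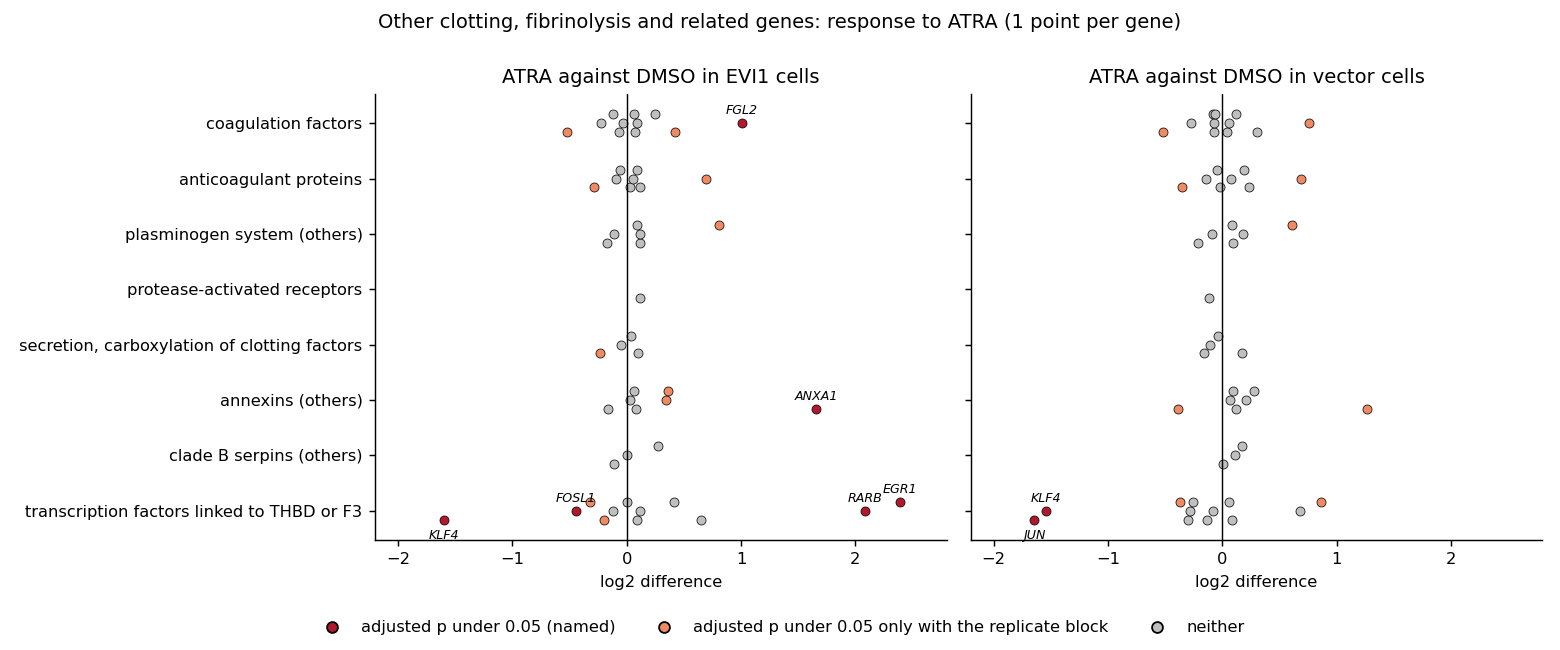
Log2 differences (horizontal axis) of the 52 tested genes of the 8 further lists for ATRA against DMSO in EVI1 cells (left) and vector cells (right), 1 point per gene, spread vertically only for legibility; colour marks an adjusted p under 0.05 without the replicate block (named), only with it, or neither. In EVI1 cells 6 genes are named and in vector cells 2, and most points lie near 0.

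Among 12 transcription factors linked to THBD or F3 in earlier work, KLF4 fell with ATRA in both cell types, with log2 differences of -1.60 in EVI1 cells and -1.54 in vector cells (limma adjusted p = 0.000305 and 0.00112). JUN, an AP-1 subunit, fell by 1.64 on the log2 scale in vector cells (8.25 ± 0.22 with ATRA and 9.89 ± 0.19 with DMSO; adjusted p = 0.0271), while in EVI1 cells it averaged 9.38 ± 0.94 with ATRA and 9.50 ± 0.17 with DMSO (adjusted p = 0.886). In EVI1 cells EGR1 rose by 2.39 (adjusted p = 0.0175), the retinoic acid receptor RARB by 2.08 (0.00282), and FOSL1 fell by 0.45 (0.0450). EGR1 and RARA were higher in EVI1 than in vector cells under ATRA, by 2.88 and 0.72 (adjusted p = 0.0153 and 0.0221). With the block only, RARB was also higher with ATRA in vector cells (0.86, adjusted p = 0.202, blocked 0.00839). Between EVI1 and vector cells the block added RARB (1.16, adjusted p = 0.0700, blocked 0.00182) and JUN (1.13, adjusted p = 0.0801, blocked 0.0311) under ATRA, and EGR1 under DMSO (1.17, adjusted p = 0.561, blocked 0.0162). How these genes relate to the members was not tested.

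THBD is best known from endothelium, so markers of other cells were read beside it. Of 8 endothelial markers 5 passed the filter, and the mean level of the list was 4.67 to 4.79 in EVI1 ATRA, 4.69 to 5.05 in EVI1 DMSO, 4.66 to 4.79 in vector ATRA and 4.63 to 4.87 in vector DMSO cells. The endothelial genes CDH5 (3.08 to 3.55) and KDR (2.91 to 3.28) stayed below the lower quartile on all 12 arrays. The 5 that passed were VWF (5.59 to 5.98), TEK, CLDN5, ESAM and ROBO4. Of 8 megakaryocyte and platelet markers 5 passed the filter, with list means of 5.01 to 5.12 in EVI1 ATRA, 5.05 to 5.14 in EVI1 DMSO, 5.05 to 5.08 in vector ATRA and 5.08 to 5.28 in vector DMSO cells, and PPBP read 2.84 to 3.48. GP9, GP1BA, ITGA2B, ITGB3 and PF4 were the 5 that passed. The fibroblast list ranged from 5.19 to 5.38, the epithelial list from 4.60 to 4.87 and the list of T and B cell markers from 4.98 to 5.31 over all arrays. Of their measured markers 4 of 8, 2 of 5 and 4 of 7 passed the filter, in that order. These were COL1A1, DCN, PDGFRB and FAP, then KRT8 and KRT18, then CD3D, CD3E, CD79A and CD79B. COL3A1 (3.87 to 4.38), EPCAM (2.78 to 3.37) and CD3G (4.02 to 4.65) did not pass. Single markers of these lists were called by limma. FAP of the fibroblast list (5.68 to 7.20) rose with ATRA by 0.83 in EVI1 cells and by 0.90 in vector cells (adjusted p = 0.0222 and 0.0411). CD79B of the T and B cell list (5.14 to 6.52) rose with ATRA by 0.55 in EVI1 cells (adjusted p = 0.0184), and it was higher in EVI1 than in vector cells by 0.77 under ATRA (adjusted p = 0.00888) and by 0.48 under DMSO, the last with the block only (blocked adjusted p = 0.0409). ESAM of the endothelial list passed with the block only (-0.42 with ATRA in EVI1 cells, blocked 0.0290). Whether other cells contributed to any member's level was not tested further.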

How the data were processed

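Targets made from 250 ng of total RNA per sample were hybridised to 3′ expression arrays, per the labels' protocols. The deposited values are log2 levels from RMA, which the submitters' processing notes place in Expression Console 1.3 (Affymetrix); the settings are not given in the sources used here. The table was used as deposited. Of 54675 probe sets, 41097 carried 1 gene symbol, 1801 several and 11777 were not listed in the array annotation. The brightest single-symbol probe set stood for its gene, and a gene was tested if 3 or more arrays reached a log2 level of 5.

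A model with 1 mean per group was fitted by lmFit and eBayes (limma 3.58.1, R 4.3.3) over the 12 arrays, leaving 8 residual degrees of freedom, and gave 5 contrasts. The fit was also run on simulated arrays with independent noise, which do not carry the likeness of same-numbered arrays given below. The labels share replicate numbers between groups. Same-numbered arrays deviated from their group means together (r of 0.408 to 0.704 in all 18 pairs, against -0.56 to 0.164 in 36 other pairs), so the fit with the replicate number as a block is given where it changes a call. The labels do not say what a number marks.

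The members and lists were chosen with earlier results of these data known. The named genes were all members, genes of the further lists past the threshold (at most 4 per direction and comparison) or described as low, and the 3 closest genes to THBD and F3. Genes named as chosen after their values were seen, and those passing with the block only, lie outside this rule. Alternatives were the block, 2 other filters, quantile normalisation, an intensity trend, the mean of a gene's probe sets and leaving out arrays; 2 more were added after seeing the data. Precision is limited by having 3 arrays in a group.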

Additional observations from a re-analysis of the deposited data

How the results depend on the processing

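The calls of members in each comparison were recomputed under 8 alternatives and with arrays left out, as 920 single values, of which 836 kept their direction and their side of the threshold, 30 lost the call, 22 gained one and 32 changed sign. Those that changed sign were not called under either setting. Signs were compared after rounding to 2 decimals. ANXA2 for EVI1 against vector under DMSO, at -0.0033 in the main fit, thus counted as 0 and its changes of sign are not among the 32. With the replicate block, 5 members were called for ATRA in EVI1 cells, 4 for ATRA in vector cells and 5 for EVI1 against vector under DMSO, where 2 were called in each without it, and the counts over all genes were 5023, 2818 and 1013, against 2127, 496 and 171, and 3559 against 790 for EVI1 against vector under ATRA. With the block and without number 3 (added after seeing the data), 4 members were called in each ATRA comparison, and 3350, 1893, 363 and 1 genes for ATRA in EVI1 cells, ATRA in vector cells, EVI1 against vector under DMSO and the interaction. With the mean of all probe sets, 1 member was called for ATRA in EVI1 cells and 1 for EVI1 against vector under DMSO, THBD and SERPINE2 being lost (0.88 and -0.48), the second with its dim probe set (2.96 to 3.37) averaged in. Without both DMSO arrays of number 3 (added after seeing the data), 1 member and 35 genes were called for EVI1 against vector under DMSO. With arrays left out, the members called ranged over 0 to 4 and all genes called over 5 to 3224 for ATRA in EVI1 cells, 0 to 2 and 0 to 632 for ATRA in vector cells, 0 to 3 and 12 to 190 for EVI1 against vector under DMSO, 0 to 4 and 15 to 1962 under ATRA, and 0 and 0 to 1 for the interaction. The lowest counts came without all 4 arrays of number 2, where 0 members were called by limma in any comparison. The other filters, quantile normalisation and the intensity trend left every count of members as it was.

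Differences that changed sign when arrays were left out ranged, for ATRA in EVI1 cells, over -0.3033 to 0.0317 (PROCR) and -0.1667 to 0.1383 (SERPINE2); for ATRA in vector cells, over -0.075 to 0.07 (PLAUR) and -0.18 to 0.105 (SERPINE2); under DMSO between the cell types, over -0.065 to 0.19 (PLAU); and for the interaction, over -0.0467 to 0.2883 (PROCR), -0.0067 to 0.2983 (PLAU), -0.1233 to 0.1817 (SERPINE2), -0.36 to 0.0433 (ANXA2) and -0.06 to 0.265 (S100A10). For SERPINE2, the mean of probe sets gave 0.005 with ATRA in vector cells and -0.085 for the interaction, the fit without both DMSO arrays of number 3 gave 0.03 and -0.08, and the block without number 3 gave 0.105 with ATRA in each cell type. For S100A10 that last fit gave an interaction of -0.06. Outside that count, ANXA2 under DMSO between the cell types was -0.0033 in the main fit and ranged over -0.2133 to 0.19 with arrays left out. The cause of these changes was not tested.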
